A study of Mus musculus with 6 samples.

Results

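A set of 10 transcription factor genes tied to the identity of tuft cells were followed here through every library of the series. They are Pou2f3, Gfi1b, Spib, Sox9, Runx1, Hmx2, Hmx3, Hivep3, Pou2f1 and Pou2f2, chosen by name from those whose products are linked to this cell fate or belong to the family of one that is, and all 10 were found among the 23420 genes of the table. The libraries were made from ileal tuft cells of C57BL/6J mice heterozygous for Gfi1b-eGFP, 1 group of 6 libraries labelled as mouse replicates 1 to 6, with no treated, knockout or otherwise contrasted group. In these mice 1 Gfi1b allele carries green fluorescent protein, and the sort kept live GFP+ EpCam+ CD45- cells. The study gives a single age range for all of its mice and none for these libraries, and nothing in the labels says whether mice were pooled. The study sorted these cells to ask which taste receptors they express, and the questions asked here are which of the identity factors are abundant in the same cells, which member of each factor family is, and whether their levels move together between libraries.

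Tuft cells are rare chemosensory cells of the epithelium that detect parasites and metabolites and release interleukin 25 and lipid mediators. POU2F3, an octamer-binding protein of the POU class 2 family, is required for tuft cells to form, and it works with small coactivator proteins that bind it on DNA. GFI1B is a zinc finger repressor, SPIB an ETS family factor, SOX9 a factor of crypt progenitors that is also kept in tuft cells, RUNX1 a runt domain factor, and HMX2 and HMX3 are homeobox proteins. HIVEP3 is a large zinc finger protein, and POU2F1 and POU2F2 are the relatives of POU2F3 known mainly from many tissues and from B cells, respectively.

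The levels are TPM, the number of a gene's transcripts in each 1000000, which the authors calculated with RSEM. The unit is corrected for transcript length, so that levels of different genes can be set side by side if reads cover whole transcripts, as in the full-length protocol of the methods. The labels name 3′ preparations as well, and for reads from one of those the length correction would shift ratios between genes. Read numbers cannot be had from TPM, and the depth behind each value is unknown. Between 13044 and 13308 genes per library were listed above 0. The ribosomal RNA precursor Rn45s took 23.1% to 32.6% of the TPM, and a further transcript, Gm20594, took 1.56% to 2.13% in replicates 1 to 3 and 5.18% to 5.64% in replicates 4 to 6, a split that no label explains. The cells carried the effector genes of tuft cells: all 14 genes of a list without transcription factors were above 0 in every library, they summed to between 7996 and 13592 TPM, and abundant members were the taste channel gene Trpm5 (1141 ± 210.6 TPM, SD, n = 6) and Alox5ap of leukotriene synthesis (1030 ± 369.6). Genes of other intestinal cells were present as well. Sums ranged from 7471 to 15628 TPM for 6 enterocyte genes, from 3560 to 21409 for 6 Paneth cell genes, from 768.9 to 4303 for 6 goblet cell genes, from 436.5 to 957.4 for 8 crypt genes, from 374.1 to 525.3 for 6 enteroendocrine genes, from 84.29 to 2310 for 6 M cell genes and from 42.14 to 388.7 for 16 leukocyte genes. In bulk RNA, fewer cells of a type and less RNA per cell cannot be told apart.

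Of the 10 factors, 9 were listed above 0 in all 6 libraries and 7 averaged 10 TPM or more. Over all genes of the table these shares were 47.2% and 29.8%. In order of mean level on the log2(TPM + 1) scale the factors were Spib, Sox9, Pou2f3, Gfi1b, Hmx2, Hmx3, Runx1, Hivep3, Pou2f1 and Pou2f2. Of the 45 pairs, 42 stood in the same order in all 6 libraries. Each had an adjusted p of 0.03348 by the exact two-sided sign-flip permutation test of the difference within library. This rests on a raw p of 0.03125, the smallest that 6 libraries can give. The 3 other pairs were neighbours in the order, namely Sox9 with Pou2f3, Hmx2 with Hmx3 and Hivep3 with Pou2f1. The means of the factors ran from 415 TPM for Spib to 0.0183 TPM for Pou2f2, and genes so far apart keep their order easily. The share of ordered pairs among other genes was not computed, so the count describes these levels and no trait of the factors.

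**Figure D1:**
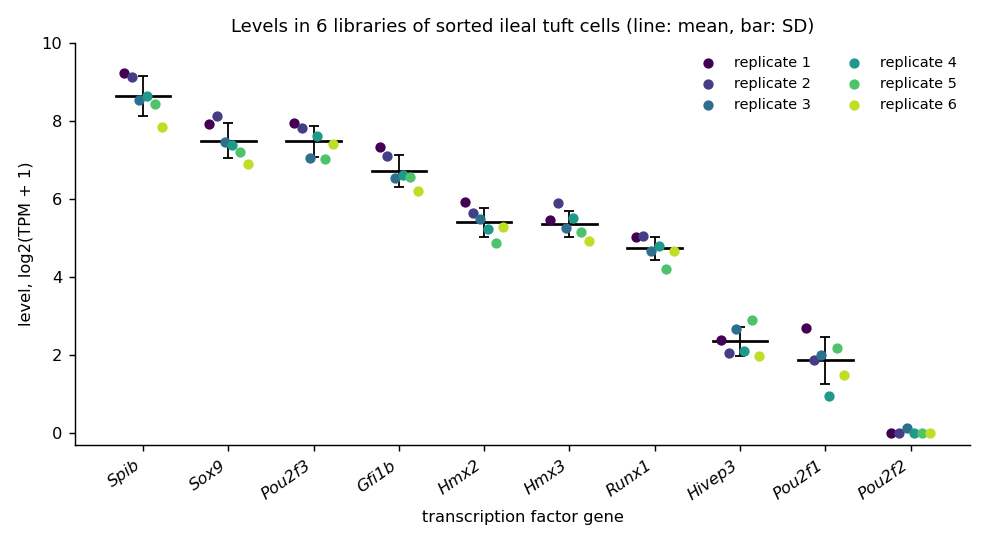
Each point is 1 of the 6 libraries (colours: replicates 1 to 6), the vertical axis is the level as log2(TPM + 1), and for genes above 0 in every library the horizontal line is the mean and the bar the SD. Spib lies highest with a mean of 8.63, Sox9 and Pou2f3 lie together at 7.49 and 7.47, and Pou2f2 is at 0 in all libraries but replicate 3.

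Pou2f3, the gene of the octamer factor on which tuft cells depend, lies on the minus strand at chr9:43123939-43210369 (GRCm38, the mm10 build). In replicates 1 to 6 it stood at 247, 225, 131, 193, 128 and 167 TPM (mean 182 ± 48.7, SD, n = 6). It was high in replicates 1 and 2 and lowest in replicates 3 and 5, a range of 1.92-fold, and it lay between percentiles 93 and 96.2 of the genes listed above 0 in its library. Pou2f1, the broadly expressed relative (chr1:165865154-166002678, minus strand), ranged from 0.93 TPM in replicate 4 through a median of 2.87 to 5.49 TPM in replicate 1. Pou2f2, the relative of B cells (chr7:25087344-25179726, minus strand), was listed at 0.11 TPM in replicate 3 and at 0 in the other libraries.

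Pou2f3 exceeded Pou2f1 in every library, by 36.4-fold to 208-fold with a median of 64.5-fold, and the difference on the log2(TPM + 1) scale was 5.60 ± 0.69 (adjusted p = 0.03348, exact sign-flip permutation test, n = 6). Against Pou2f2 the difference was 7.45 ± 0.43 with the same adjusted p by the same exact test. The table holds 15 POU genes in all. Of these, 5 were at 0 in every library, only Pou2f3 and Pou2f1 were above 0 in every library, and the highest value of any of the others was 6.31 TPM for Pou5f2 in replicate 1, where it was at 0 or 0.13 elsewhere. Pou2f3 supplied between 94.8% and 99.2% of the summed TPM of the family.

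The 3 class 2 genes are alike in sequence where they encode the DNA-binding part of the protein, so the letters by which reads of one can be told from reads of another are shown in capitals. These are the 60 coding bases most alike between them that lie within 1 exon, written 5′ to 3′ on the coding strand from GENCODE M21 transcripts on GRCm38, at chr9:43139359-43139418 in exon 8 of 13 of Pou2f3, chr1:165897668-165897727 in exon 10 of 17 of Pou2f1 and chr7:25097436-25097495 in exon 9 of 15 of Pou2f2, all on the minus strand.
Pou2f3: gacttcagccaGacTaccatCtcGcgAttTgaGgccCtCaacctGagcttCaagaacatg
Pou2f1: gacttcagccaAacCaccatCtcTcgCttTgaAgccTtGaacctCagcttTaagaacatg
Pou2f2: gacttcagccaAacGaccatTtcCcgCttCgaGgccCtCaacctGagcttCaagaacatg
The 3 stretches differ at 11 positions, and the longest run without a difference among all 3 is 11 bases. Pou2f3 and Pou2f2 by themselves share a longer run at the end of the stretch. Pou2f1 is identical to Pou2f3 at 51 of the 60 bases and Pou2f2 at 54. Over whole transcripts, 6.22% of the 2686 sequence words of 25 bases in Pou2f3 also occur in another gene, with 8 of them in Pou2f2. For Pou2f1 the share is 22%, because 2944 of its 13510 words lie in exons that overlap Cd247, a T cell receptor subunit gene on the opposite strand, and whether the counting used strand is not given in the sources used here. Cd247 itself was listed at 0.19 TPM in replicate 3, at 2.9 TPM in replicate 6 and at 0 in the others. The low level of Pou2f1 is uncertain because of the overlap, and how reads were divided there was not tested. The overlap is that of GENCODE M21, while the authors mapped reads to the UCSC mm10 transcriptome. RSEM divides reads that fit several genes by estimated shares.

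Coactivator genes of the class 2 factors stood at very different levels. 1810046K07Rik, which encodes the tuft cell coactivator also named POU2AF2 or OCA-T1, lies at chr9:51289686-51328917 on the minus strand and had 401, 434, 287, 227, 238 and 245 TPM in replicates 1 to 6. It was above Pou2f3 in 6 of 6 libraries, by 1.17-fold to 2.19-fold with a median of 1.74-fold. Colca2, listed in the table as Gm684 and encoding POU2AF3 or OCA-T2, lies 11116 bases away at chr9:51270258-51278569 on the same strand and ranged from 20.5 TPM through a median of 26.3 to 43.6 TPM. Pou2af1, which encodes the coactivator of B cells and is the neighbour of these genes at chr9:51213708-51240080 on the plus strand, was at 0 in 4 libraries, at 0.17 TPM in replicate 2 and at 1.74 TPM in replicate 5.

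The ratio of the tuft cell coactivator genes to each other hardly varied. 1810046K07Rik was 9.97-fold to 11.8-fold above Colca2 (median 10.5-fold), a difference of 3.37 with an SD of 0.10 on the log2(TPM + 1) scale, and that difference was 3.37 both in replicates 1 to 3 and in replicates 4 to 6. The difference from 1810046K07Rik to Pou2f3 varied more, at 0.74 ± 0.32, and stood at 0.92 in replicates 1 to 3 and 0.55 in replicates 4 to 6. No test was run on these ratios.

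**Figure D2:**
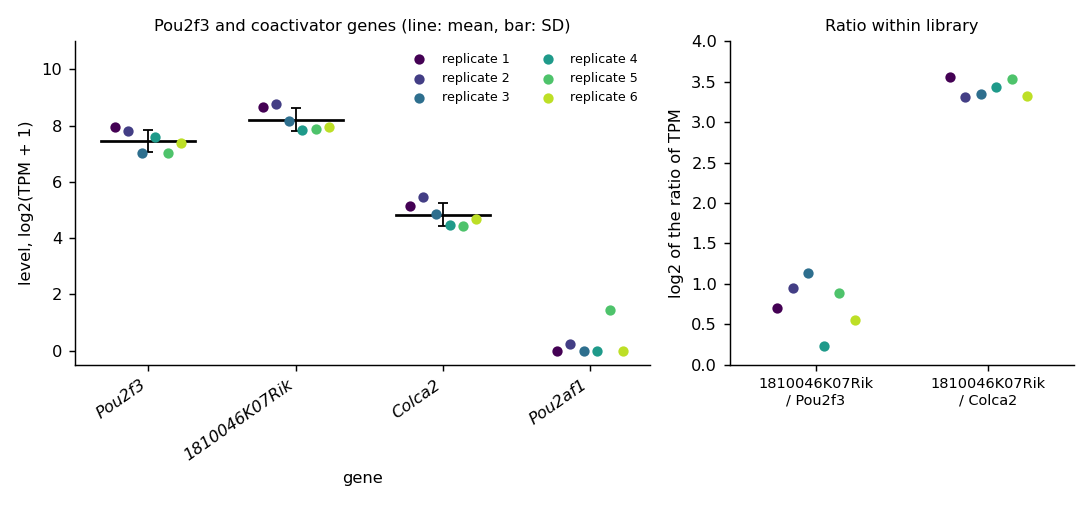
On the left, points are the levels of Pou2f3 and the 3 coactivator genes in each library as log2(TPM + 1), with mean and SD for genes above 0 in every library, and on the right the log2 ratios of TPM within each library. The ratios of 1810046K07Rik to Colca2 lie close together (9.97-fold to 11.8-fold), while those to Pou2f3 spread more widely (1.17-fold to 2.19-fold).

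Class 2 POU proteins bind the octamer ATGCAAAT. The letters of a promoter of 1810046K07Rik are shown because that word occurs in it on both strands, while the other promoter listed for this gene, at chr9:51312620-51312919, held none. The sequence is RefSeq's on GRCm38.p6, chr9:51328869-51329168 on the minus strand, and runs from 250 bases before to 50 after the gene's start with the octamers in capitals.
1810046K07Rik: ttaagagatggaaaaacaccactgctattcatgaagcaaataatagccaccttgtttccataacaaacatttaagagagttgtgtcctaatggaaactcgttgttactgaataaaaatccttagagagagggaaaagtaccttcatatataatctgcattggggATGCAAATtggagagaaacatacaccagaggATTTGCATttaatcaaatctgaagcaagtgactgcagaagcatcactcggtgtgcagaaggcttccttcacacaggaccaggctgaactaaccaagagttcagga
The octamers begin 86 and 55 bases before the start, 31 bases apart and on opposite strands. Searching both strands for ATGCAAAT, that is also for its reverse complement ATTTGCAT, found it in 570 of 32851 promoters of this length (1.74%), and in 35 of them (0.107%) it occurred at least 2 times. Among the 10 factors and 3 coactivator genes, 11 genes had 16 promoters in the table and 1 promoter held it. Pou2f3 and Sox9 are the genes whose promoters were not searched. A match of letters is a description and no evidence of binding.

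Spib, an ETS factor gene also expressed by B cells and M cells, was the most abundant of the 10 (chr7:44525993-44532071, minus strand). Its level was 602, 552, 373, 395, 342 and 227 TPM in replicates 1 to 6 (mean 415 ± 139, SD, n = 6), and replicates 1 and 2 were clearly above the other 4. Spib exceeded the next factor, Sox9, in every library by 1.93-fold to 2.48-fold (median 2.23), a difference of 1.13 ± 0.15 on the log2(TPM + 1) scale (adjusted p = 0.03348, exact sign-flip permutation test, n = 6). Its relative Spi1, the PU.1 gene of myeloid and B cells, was at 0 in replicates 5 and 6 and at most 3.71 TPM, in replicate 2. The difference between Spib and Spi1 was 7.84 ± 0.58 on the log2(TPM + 1) scale (adjusted p = 0.03125 over 7 pairs of relatives, exact sign-flip permutation test, n = 6).

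Markers of cells other than tuft cells that use Spib were looked at beside it. The B cell gene Ms4a1 was at 0 in every library, and Cd79a and Cd79b reached at most 1.99 and 2.42 TPM. M cell genes were not absent. All 6 genes of that list were above 0 in every library, led by Ccl20 and Gp2. Gp2, a bacterial uptake receptor that defines mature M cells, varied most. It stood at 1262 TPM in replicate 1, where Spib was highest, and at 4.33 TPM in replicate 6, where Spib was lowest. Tnfrsf11a alone of the list went the other way, at 11.07 TPM in replicate 1 and 17.14 TPM, its highest, in replicate 6. The M cell sum was 2310, 544.6, 163.9, 347.6, 421 and 84.29 TPM in replicates 1 to 6. The median of the list correlated with Spib across the 6 libraries at r = 0.89 (exact permutation p = 0.0319) and rho = 0.66 (exact permutation p = 0.175), a relation looked for after the values had been seen and outside the adjusted family. Without both replicates 6 and 1, which lie farthest out, r was 0.31, and leaving out both also narrows the range of values. Without replicate 1 alone r was 0.82, and r without replicate 6 alone was not computed. With Rn45s and Gm20594 dropped from the total, r was 0.91 (exact permutation p = 0.0194). After centring within the sets of libraries that differ in Gm20594, r was 0.88 (exact permutation p = 0.0833 over pairings within sets). The part of M cells in the level of Spib was not tested.

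Sox9 (chr11:112782224-112787760, plus strand) stood in replicates 1 to 6 at 243, 276, 176, 165, 146 and 117 TPM (mean 187.1 ± 60.2, SD, n = 6). It was above Pou2f3 in 3 libraries and below it in the other 3, and the difference of 0.02 ± 0.35 was not past the threshold (raw p = 0.9375, exact sign-flip permutation test, n = 6). Sox4, the SOX family gene linked to a separate route to tuft cells, was low at 4.75 ± 1.24 TPM, and Sox9 exceeded it by 20.8-fold to 91.7-fold with a median of 35.8-fold. The difference was 5.00 ± 0.69 on the log2(TPM + 1) scale (adjusted p = 0.03125, exact sign-flip permutation test, n = 6). Because Sox9 is also a gene of crypt cells, it was set beside 8 crypt genes, whose list median gave r = 0.16 across the libraries (exact permutation p = 0.753) and rho = 0.60 (exact permutation p = 0.242). This r had no stable direction: it was 0.62 without replicate 3, -0.14 without replicate 6, -0.32 under either rescaling of the libraries and -0.64 after centring within replicates 1 to 3 and 4 to 6. The crypt list holds no Paneth cell genes, and the part of Paneth cells in the level of Sox9 was not tested.

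Gfi1b (chr2:28609450-28621982, minus strand) is the gene that drove the reporter used for the sort, so its presence was fixed by how the cells were chosen. It ranged from 72.9 TPM in replicate 6 through a median of 95.4 to 160.1 TPM in replicate 1 (mean 108.7 ± 32.6, SD, n = 6), and transcripts of the intact and the reporter allele are not told apart. Its relative Gfi1, a repressor that restrains the enteroendocrine programme in secretory progenitors, was at 0 in 3 libraries and at 0.25, 0.59 and 1.92 TPM in replicates 1, 3 and 5. The difference was 6.30 ± 0.78 on the log2(TPM + 1) scale (adjusted p = 0.03125, exact sign-flip permutation test, n = 6). Pou2f3 was above Gfi1b in all 6 libraries, by 0.74 ± 0.29 on the same scale. This order is that of mice with 1 reporter allele. How that allele changes the counted level of Gfi1b, and so its place among the factors, was not tested.

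GFI1B and GFI1 silence genes through a complex of the histone demethylase LSD1, a CoREST protein and histone deacetylases. Of the genes for these partners Hdac1 was the most abundant at 171.8 ± 35.5 TPM, while Hdac2 had 14.5 ± 6.01, Kdm1a, which encodes LSD1, 11.5 ± 5.06, and the CoREST gene Rcor1 11.2 ± 3.11 TPM (SD, n = 6). A second CoREST gene, Rcor2, was at 0 except for 0.21 TPM in replicate 5. Gfi1b and Rcor1 were both highest in replicate 1 and lowest in replicate 6, whereas Kdm1a was highest in replicate 5 and lowest in replicate 2.

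Hmx2 and Hmx3, neighbouring homeobox genes on the plus strand of chromosome 7, overlapped in level. Hmx3 (chr7:131542867-131544925) ends 3847 bases before Hmx2 (chr7:131548773-131558014) begins. Hmx2 ranged from 28.1 TPM in replicate 5 through a median of 41.1 to 59.8 TPM in replicate 1, and Hmx3 from 29.5 TPM in replicate 6 through a median of 40.02 to 58.1 TPM in replicate 2. The ratio of Hmx2 to Hmx3 lay between 0.817 and 1.4, with each gene higher in 3 libraries, and the difference of 0.04 ± 0.35 on the log2(TPM + 1) scale was not past the threshold (adjusted p = 0.799, exact sign-flip permutation test, n = 6). Gfi1b, the next factor above them, exceeded Hmx2 by 1.32 ± 0.29 with 6 of 6 libraries in that order.

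The coding sequences of Hmx2 and Hmx3 also share a stretch, and it is shown to make plain where their reads can be confused. These are 60 bases of GENCODE M21 transcripts on GRCm38, at chr7:131555644-131555703 in exon 3 of 3 of Hmx2 and chr7:131544284-131544343 in exon 2 of 2 of Hmx3, both on the plus strand, with differing letters in capitals.
Hmx2: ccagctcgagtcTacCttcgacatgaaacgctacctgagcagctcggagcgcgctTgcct
Hmx3: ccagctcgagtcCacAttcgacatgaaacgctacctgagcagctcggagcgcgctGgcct
They are identical at 57 of 60 bases, with a longest identical run of 39. Over the whole transcripts 23 words of 25 bases are shared by these genes, out of 3190 in Hmx2 and 1433 in Hmx3.

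Runx1 (chr16:92601466-92826149, minus strand), a factor best known from blood cells, ranged from 17.6 TPM in replicate 5 through a median of 25.6 to 32.0 TPM in replicate 2 (mean 26.1 ± 5.32, SD, n = 6). The other RUNX genes were lower. Runx2 had 0.967 ± 0.733 TPM, and Runx3, a gene of T cells and other lymphocytes, had at most 0.41 TPM, in replicate 6, and was at 0 in replicate 2. The differences of 3.83 ± 0.42 from Runx2 and 4.58 ± 0.40 from Runx3 on the log2(TPM + 1) scale had the same order in all libraries (both with an adjusted p of 0.03125, exact sign-flip permutation test, n = 6). Cbfb, whose protein is the partner of every RUNX factor on DNA, had 1.97 TPM in replicate 4, where it was lowest, and 19.5 TPM in replicate 2, where it was highest. The summed leukocyte genes, led by Ccl5, Gzma and Gzmb, were lowest in replicate 1 and highest in replicate 6, and the correlation of Runx1 with their list median was r = -0.18 (exact permutation p = 0.771) and rho = -0.26 (exact permutation p = 0.658). That value depends on replicate 5, where Runx1 was lowest: without it r was -0.94 (adjusted exact permutation p = 0.125), and with the mean of the list in place of its median r was -0.59.

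Hivep3 (chr4:119733784-120138045, plus strand) was low, from 2.98 TPM in replicate 6 through a median of 3.78 to 6.47 TPM in replicate 5, and its highest library was not one of those in which the abundant factors were high. It did not differ from Pou2f1 past the threshold (0.48 ± 0.50, higher in 5 of 6 libraries, adjusted p = 0.0981, exact sign-flip permutation test, n = 6). In the HIVEP family the chosen gene was at the bottom, unlike Gfi1b, Spib, Sox9 and Runx1, which lay above their listed relatives. Hivep1 had 14.5 ± 3.23 TPM and Hivep2 32.2 ± 9.45 TPM (SD, n = 6). Hivep3 minus Hivep1 was -1.58 ± 0.49 and Hivep3 minus Hivep2 was -2.65 ± 0.53 on the log2(TPM + 1) scale, with Hivep3 lower in 6 of 6 libraries for both (adjusted p = 0.03125 each, exact sign-flip permutation test).

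**Figure D3:**
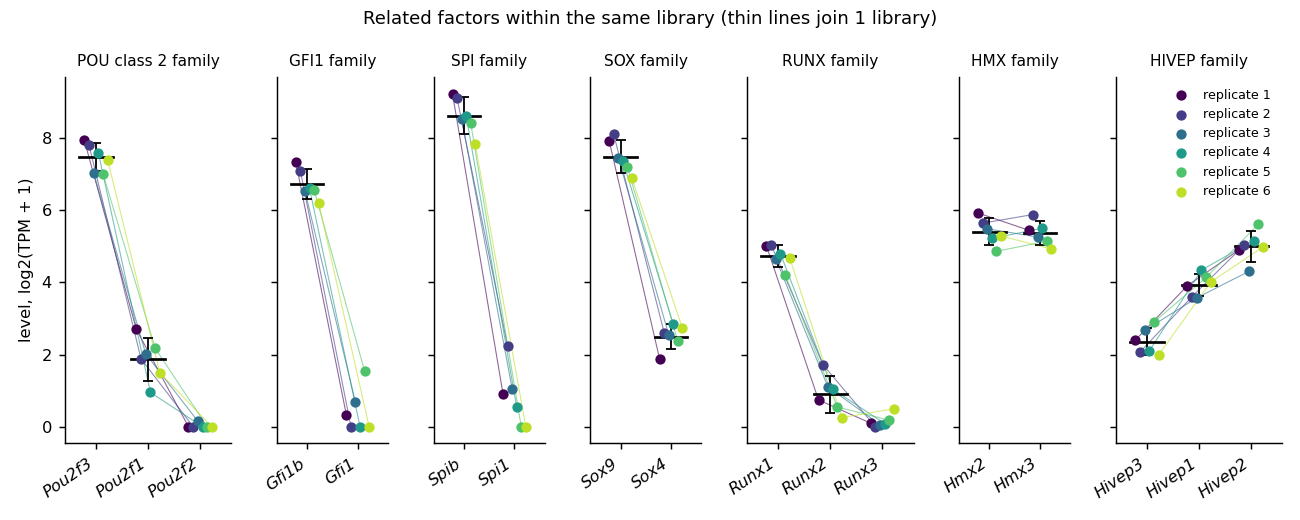
Levels of related factors as log2(TPM + 1) in 7 families, with points for the 6 libraries, thin lines that join values of 1 library, and mean and SD for genes above 0 in every library. Spib, Gfi1b, Sox9, Runx1 and Pou2f3 lie above their relatives in all libraries, Hmx2 and Hmx3 overlap, and Hivep3 lies below Hivep1 and Hivep2.

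Among 22 transcription factor genes of other epithelial fates, a list that holds Spib too, 22 were found, 11 averaged 10 TPM or more and 4 were under 1 TPM. Spib was the highest of the list in 5 of 6 libraries, the exception being replicate 3, where the intestinal homeobox gene Cdx1 had 447 TPM. Cdx1, at 269 ± 113.8 TPM, was also the 1 gene besides Spib whose mean was above that of Pou2f3. Hnf4a, a nuclear receptor gene of the enterocyte programme, had 133.9 ± 20.5 TPM, Klf4, a gene of differentiated epithelium, 95.7 ± 22.5, the Wnt effector gene Tcf7l2 88.1 ± 16.2 and Cdx2 41.9 ± 4.83 (SD, n = 6). Atoh1, the master gene of secretory cells, was low at 6.22 ± 3.74 TPM, Ascl2 of stem cells stood at 12.3 ± 4.68 TPM, and Neurog3 and Insm1 of enteroendocrine cells reached no more than 0.3 and 0.15 TPM in any library.

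Between libraries the abundant factors ranged from 1.82-fold (Runx1) to 2.65-fold (Spib), and the same libraries tended to be high or low for each. Of the 7 factors that averaged 10 TPM or more, 7 were highest in replicate 1 or 2 (4 in replicate 1 and 3 in replicate 2) and 7 were lowest in replicate 5 or 6. Among all 6984 genes at that level these shares were 44.1% and 48.1%. After rescaling without Rn45s and Gm20594, 7 were highest in replicate 1 or 2 and 6 lowest in replicate 5 or 6, against 36.2% and 34.9% of all genes. Their coefficient of variation had a median of 26.8% and ranged from 20.4% for Runx1 to 33.5% for Spib, beside a median of 31% and quartiles of 23% and 41.8% over all 6984 genes. Expressed as a ratio to Pou2f3 in the same library, Runx1 was the steadiest, at 0.127 to 0.185 of Pou2f3 and with an SD of 0.19 on the log2 scale compared with 0.32 for its level. Spib was the least steady of the 6 at an SD of 0.39.

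The factors were then set beside the tuft cell effector genes across libraries. The median log2(TPM + 1) of the 14 effector genes was 9.43, 9.37, 8.80, 8.90, 8.59 and 8.53 in replicates 1 to 6, so that replicates 1 and 2 stood above the other 4. In a family of 15 relations of factors with marker lists, 3 passed the adjustment by Pearson's r, and all 3 were with this list. Spib gave r = 0.94 (exact permutation p = 0.00139, adjusted 0.0208) and rho = 1.00 (exact permutation p = 0.00278, adjusted 0.0417). Gfi1b gave r = 0.95 (exact permutation p = 0.00417, adjusted 0.0312) and rho = 0.94 (exact permutation p = 0.0167, adjusted 0.125), and Sox9 gave r = 0.96 (exact permutation p = 0.00694, adjusted 0.0347) and rho = 0.89 (exact permutation p = 0.0333, adjusted 0.167). Only the rho of Spib passed the adjustment.

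Pou2f3 itself gave r = 0.84 (exact permutation p = 0.0458, adjusted 0.0982) and rho = 0.83 (exact permutation p = 0.0583, adjusted 0.175), and Runx1, Hmx2 and Hmx3 gave r between 0.83 and 0.84 with adjusted exact permutation p of 0.0903 each. Hivep3, Pou2f2 and Pou2f1 gave r of -0.25, -0.17 and 0.41, none of them past the threshold (exact permutation p = 0.59, 0.833 and 0.438). When replicates 1 and 2, the farthest out, were left out, r over the other 4 libraries was 0.82 for Spib, 0.85 for Sox9, 0.69 for Gfi1b and 0.95 for Hmx3, and it fell to 0.34 for Pou2f3, 0.41 for Hmx2 and 0.58 for Runx1. For these last 3 the relation rests on replicates 1 and 2. With the mean of the effector list in place of its median, r was 0.95 for Pou2f3. In that setting it was 0.90 for Gfi1b, 0.85 for Spib and 0.84 for Sox9, and none passed the adjusted threshold. Which factor follows the list most closely thus depends on how the list is summarised.

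Values within the sets of libraries that differ in Gm20594 were computed by centring each set of 3 on its mean. Then r was 0.92 for Pou2f3 (exact permutation p = 0.0833 over pairings within sets), 0.91 for Gfi1b (p = 0.0278 by the same exact test), 0.87 for Spib (exact p = 0.0278) and 0.90 for Sox9 (exact p = 0.0556). The smallest p these pairings can give is 0.0278, and no relation passed the adjustment, with adjusted exact p of 0.208 for Gfi1b and Spib and 0.278 for Sox9. Without Rn45s and Gm20594 in the total, r was 0.91 for Spib, which passed (adjusted exact permutation p = 0.0417), and 0.94 for Gfi1b and 0.93 for Sox9, which did not (adjusted exact permutation p = 0.0833 each). The relation of Spib with the leukocyte genes was negative and not past the threshold, with r = -0.78 (exact permutation p = 0.0569, adjusted 0.107) and rho = -0.66 (exact permutation p = 0.175, adjusted 0.328), and with r = -0.32 when replicates 6 and 1 were left out. It passed the threshold without replicate 5 (r = -0.93) and with the mean of the leukocyte list (r = -0.96), both with an adjusted exact permutation p of 0.0417. Pou2f2 and Hivep3 gave r of 0.35 and -0.36 with the leukocyte list (exact permutation p = 0.667 and 0.447). The share of tuft cells in each sort was not measured in these files, and its part in these relations was not tested.

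**Figure D4:**
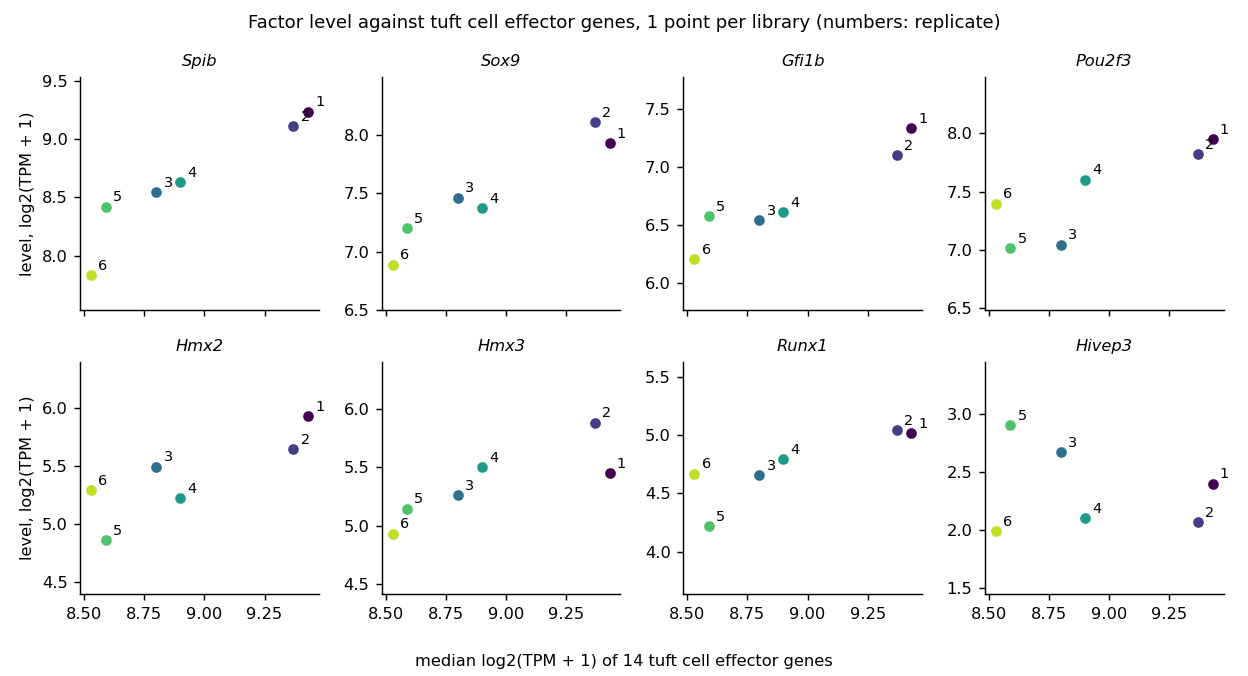
For 8 factors, the level in each library as log2(TPM + 1) is plotted against the median log2(TPM + 1) of 14 tuft cell effector genes, with 1 point per library, the replicate number beside it and each vertical axis spanning 2 units. Points rise from left to right for Spib (r = 0.94), Sox9 (0.96) and Gfi1b (0.95), and those for Hivep3 do not (-0.25).

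Genes with the pattern most like that of Pou2f3 over the 6 libraries were sought among 6985 other genes that averaged 10 TPM or more. The closest by Pearson's r of log2(TPM + 1) were Ceacam2 (0.997), Tbc1d1 (0.995), Ccnj (0.992), Irf7 (0.992) and F830002L21Rik (0.985). Over all these genes the median r was 0.16, and 167 of them (2.39%) reached at least 0.9. Runx1 was the nearest of the other factors at r = 0.89 (rank 211), followed by Gfi1b (0.74, rank 799) and Hmx2 (0.74, rank 807), and 1810046K07Rik gave 0.68. These correlations are over 6 points that share their library's composition and are given as a description.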

How the data were processed

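Gene expression was measured by RNA sequencing in 6 libraries of sorted ileal tuft cells, by the methods with a modified full-length SMART-Seq2 protocol, while the labels also name a 3′ polyA and a droplet preparation for every library. The authors aligned reads to the mouse transcriptome (mm10) with Bowtie, and deposited TPM values from RSEM. The submitters' processing notes also name TopHat and DESeq2, and no DESeq2 result was used here. TPM keeps no depth, so no count model, counting interval or detection limit was computed.

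Table columns were matched to replicates by number, and symbols by RefSeq synonyms (Spi1 is listed as Sfpi1, Siglecf as Siglec5, Colca2 as Gm684). Differences were taken within library on log2(TPM + 1), with a pseudocount of 1, so that folds of low genes are understated. Their test was a sign-flip permutation, exact and two-sided, over all 64 assignments, with Benjamini-Hochberg adjustment over 45 pairs of members and, separately, 7 pairs of relatives. Correlations with list medians used exact two-sided permutation over all pairings of the libraries and adjustment over 15 relations. The labels call the libraries mouse replicates and the study calls them independent samples. The p-values measure the spread between these 6 libraries, which may be technical.

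The members, gene lists and tests were chosen with earlier results of these data known. Genes named are all members, their listed relatives, coactivators and cofactors, listed fate factors, POU genes, the 3 leading genes by mean TPM of every marker list and the 5 genes most like Pou2f3, except that some items are not reported here. The fate factors, POU genes and single list genes given with values were picked from those lists after their values were seen, as were Cd247 and the relation of Spib with the M cell list. Alternatives were pseudocounts of 0.1 and 0.01, setting values under 0.1 TPM to 0, an exact Mann-Whitney test over 924 assignments, a rescaling by median-of-ratios factors, another that drops Rn45s and Gm20594, the list mean, centring within sets of 3 libraries, other thresholds for a detected gene, and leaving out each library. The tests were checked on simulated data. Positions and coding sequences are from GENCODE M21 on GRCm38, promoters from RefSeq. Calculations ran in Python 3.11.15 (scipy 1.17.1, numpy 2.4.6, pandas 2.3.3) and plots in matplotlib 3.10.9.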

Additional observations from a re-analysis of the deposited data

Results flagged for a closer look

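In each group of 6 values the highest or lowest library was compared with the nearest of the others by its gap as a share of the whole range, and 7 of 34 measures had a library standing apart by Dixon's 95% criterion, where chance gives about 1 in 20 (1.7). Of these, 6 are genes at or near 0 in most libraries, so that a single small value sets the range. Pou2f2 stood apart in replicate 3 (0.11 TPM, the others at 0, gap share 1), Rcor2 in replicate 5 (0.21 TPM, the others at 0, gap share 1), and Pou2af1 in replicate 5 (1.74 TPM against 0.17 for the next, gap share 0.902). Gfi1 stood apart in replicate 5 (1.92 against 0.59 TPM, gap share 0.693), Spi1 in replicate 2 (3.71 against 1.08 TPM, gap share 0.709) and Runx3 in replicate 6 (0.41 against 0.13 TPM, gap share 0.683). The last is the median log2(TPM + 1) of the crypt genes, which was 5.55 in replicate 3 and at most 5.00 in the others (gap share 0.705). Cdx1, a list gene given above, was also highest in replicate 3. None of the 7 abundant factors had a library standing apart by this criterion.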

How the results depend on the processing

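The 42 pairs of members and 7 pairs of relatives past the threshold were the same in number under both other pseudocounts, the low-value filter, the Mann-Whitney test and both rescalings; with 5 libraries the sign-flip test cannot go below 0.0625, and 42 to 43 member pairs and 7 pairs of relatives then kept 1 order in all libraries left. The count of members above 0 in all libraries stayed at 9 above 0.5 TPM and when any library was left out, and was 8 at 1 TPM and 7 at 5 TPM. Leaving Rn45s and Gm20594 out of the total raises every value, so that only 2 of 10 member means stayed within 1 SD; the mean became 263 TPM for Pou2f3, 157 for Gfi1b, 595 for Spib, 268 for Sox9, 37.7 for Runx1, 61.3 for Hmx2, 59.3 for Hmx3 and 6.23 for Hivep3. The number of correlations past the adjusted threshold was the least stable. The same 3 passed with a pseudocount of 0.1 and under the median-of-ratios rescaling. Only 1 passed without Rn45s and Gm20594, and 1 with the list mean. After centring 0 passed, where no raw p can be under 0.0278 before adjustment over 15 relations, so this test could hardly pass any. The number was 0 to 3 when a library was left out, and 0 without any replicate but 5. Without replicate 5 Gfi1b and Spib passed, Sox9 did not, and Spib with the leukocyte genes passed at r = -0.93. With 5 libraries no raw p can be under 0.00833. With a library left out, r with the effector genes stayed between 0.91 and 0.99 for Spib, 0.93 and 0.99 for Gfi1b and 0.95 and 0.97 for Sox9. With the list mean these r were 0.85, 0.90 and 0.84, and Pou2f3 gave a higher 0.95 (adjusted exact permutation p = 0.0694). With the list mean the leukocyte genes gave r = -0.96 with Spib, past the threshold. Sign changes occurred in 2 of the 3 member pairs not past the threshold: Hmx2 minus Hmx3 (-0.04 without replicate 1, -0.02 without replicate 6, range -0.04 to 0.11) and Sox9 minus Pou2f3 (-0.03, -0.06 and -0.01 without replicates 2, 3 and 5, range -0.06 to 0.13). The causes were not tested.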
